A study of Mus musculus with 3 samples.

Results

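Proliferating cardiac macrophages were taken as the C1q-expressing cells of the sorted mouse heart that held UMIs (unique molecular identifiers, each standing for 1 captured RNA molecule) of at least 3 of 6 cell cycle genes, Mki67, Top2a, Birc5, Cdk1, Ccnb2 and Pclaf. A cell also had to hold at least 1000 UMIs and 200 genes, with at most 10% of its UMIs from mitochondrial genes, and C1qa, C1qb and C1qc together had to make up at least 0.3% of its UMIs. By this rule 308 cells were chosen out of 8012 C1q-gated cells, themselves part of 10171 cells that passed the filters on quality. The members were thus chosen on measured values, and the levels of the 9 gate genes are given as a description only.

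The cells came from 3 droplet libraries of wild type mice aged 32 to 34 weeks, 1 from mice on a control diet (CD), 1 from mice on a high fat diet (HFD) and 1 from mice on a Western diet (WD). Hearts were flushed, digested with collagenase and sorted for cells with CD45, CD11b and F4/80 on their surface, with doublets and dead cells gated out. The sources used here do not give the length of feeding or the number of animals behind a library. With 1 library per diet there was no test between diets, and each difference between diets is also a difference between libraries. CD contributed 114 members of 2293 C1q-gated cells, HFD 50 of 2002 and WD 144 of 3717.

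Macrophages of the heart are in part a resident population that keeps its number by local division, marked in mice by Timd4, Lyve1 and Folr2, and in part descend from blood monocytes that carry the chemokine receptor Ccr2. A dividing cell first switches on genes for DNA replication, which E2F factors control, and later the genes of mitosis, many of which are held down by the DREAM complex through a CHR element (cell cycle genes homology region) and are driven through CCAAT boxes bound by NF-Y. Cdk1 and the B-type cyclin Ccnb2 form the kinase that starts mitosis, Top2a untangles DNA strands, Birc5 (survivin) belongs to the chromosomal passenger complex, Mki67 coats mitotic chromosomes, and Pclaf binds the replication clamp PCNA.

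The promoters of 5 of the 6 gate markers, and of the replication helicase gene Mcm6 as a replication gene outside the gate, are shown because they carry the elements by which these groups of genes are told apart. Each stretch runs from 220 bases before to 30 bases after the start of transcription in the RefSeq annotation of GRCm38.p6 and reads 5′ to 3′ along the gene. Capitals mark 3 kinds of element, each searched on both strands. The CHR element was searched as TTTGAA and in its rarer form as TTCGAA. The CCAAT box was searched as those 5 letters and shows as ATTGG where it lies on the other strand. E2F sites were searched as TTTGGCGC, TTTCGCGC and TTTCCCGC, and such a site can overlap its own reverse, as in Mcm6. Mki67 lies at chr7:135716350-135716599 (minus strand), Top2a at chr11:99024160-99024409 (minus strand), Ccnb2 at chr9:70421525-70421774 (minus strand), Cdk1 at chr10:69352883-69353132 (minus strand), Pclaf at chr9:65890103-65890352 (plus strand) and Mcm6 at chr1:128359676-128359925 (minus strand).
Mki67: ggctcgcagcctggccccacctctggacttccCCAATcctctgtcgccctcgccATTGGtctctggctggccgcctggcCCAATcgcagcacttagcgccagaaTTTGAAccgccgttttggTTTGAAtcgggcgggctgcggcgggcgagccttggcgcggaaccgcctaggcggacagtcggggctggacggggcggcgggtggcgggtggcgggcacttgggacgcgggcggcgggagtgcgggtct
Top2a: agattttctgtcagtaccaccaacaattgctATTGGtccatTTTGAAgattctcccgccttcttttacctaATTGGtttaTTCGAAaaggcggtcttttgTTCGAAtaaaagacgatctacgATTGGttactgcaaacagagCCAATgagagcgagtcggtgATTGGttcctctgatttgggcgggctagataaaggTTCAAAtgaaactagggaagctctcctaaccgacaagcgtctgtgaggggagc
Ccnb2: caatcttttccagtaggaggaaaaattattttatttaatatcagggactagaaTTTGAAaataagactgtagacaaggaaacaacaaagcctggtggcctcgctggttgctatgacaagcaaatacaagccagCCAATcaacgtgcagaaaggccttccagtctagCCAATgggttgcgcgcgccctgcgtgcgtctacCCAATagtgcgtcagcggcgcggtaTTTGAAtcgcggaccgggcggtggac
Cdk1: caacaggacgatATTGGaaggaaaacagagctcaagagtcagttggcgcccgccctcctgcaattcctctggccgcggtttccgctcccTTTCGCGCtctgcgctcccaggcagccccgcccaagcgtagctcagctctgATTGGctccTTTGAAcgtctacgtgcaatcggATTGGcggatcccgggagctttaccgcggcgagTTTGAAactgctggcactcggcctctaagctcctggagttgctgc
Pclaf: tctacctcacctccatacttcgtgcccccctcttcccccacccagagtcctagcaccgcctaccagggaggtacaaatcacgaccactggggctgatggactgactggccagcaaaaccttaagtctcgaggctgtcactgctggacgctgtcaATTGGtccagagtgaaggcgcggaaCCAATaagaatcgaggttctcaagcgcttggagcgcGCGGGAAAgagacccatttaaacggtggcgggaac
Mcm6: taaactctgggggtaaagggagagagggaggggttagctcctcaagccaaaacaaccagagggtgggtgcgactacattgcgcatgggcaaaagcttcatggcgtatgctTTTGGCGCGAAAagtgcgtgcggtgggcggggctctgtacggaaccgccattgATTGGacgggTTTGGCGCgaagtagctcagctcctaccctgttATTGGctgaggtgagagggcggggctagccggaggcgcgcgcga
In Cdk1 a CHR element lay 15 bases before the start and CCAAT boxes 48 and 80 bases before it, in Ccnb2 CCAAT boxes lay 21, 54 and 87 bases before the start, and in Mcm6 E2F sites lay 47 and 110 bases before it.

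In windows from 250 bases before to 50 bases after the start, a CHR element was found in 30 of the 37 G2/M and mitosis genes with a promoter in the table (81.1%, of 48 genes listed), against 21.7% of all 27025 genes. A CCAAT box stood in 28 of the same 37 (75.7%), against 41.1% of all genes, and both together in 25 (67.6%), against 8.61%. The G1/S and DNA replication genes showed another pattern. An E2F site was found in 11 of 33 of them (33.3%), against 1 of 37 G2/M genes (2.70%) and 2.12% of all genes, whereas a CHR element was found in 5 of 33 (15.2%). Of the gate markers, 4 of 6 held a CHR element (Mki67, Top2a, Ccnb2 and Cdk1) and 2 of 6 an E2F site (Cdk1 and Pclaf). None of the 3 elements was found in the window of Birc5. A match in these letters is a description of the sequence and not a measured binding site.

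The 3 libraries held 17464149 UMIs (CD), 16630481 (HFD) and 79269380 (WD), so WD was far deeper. Its matrix was also made with another software version than the other 2, and only 92 of its 6885 barcodes (1.34%) occurred in the set of barcodes that CD and HFD drew on, although the labels name 1 kit for all. WD values are therefore given beside the others, and no difference between WD and the other libraries is read from them. CD and HFD cells shared 15 barcodes, CD and WD 1, and HFD and WD 0. Members were deeper than the other C1q-gated cells in each library, with a median of 7812 against 4254 UMIs in CD, 5404 against 2909.5 in HFD and 27597 against 12015 in WD. A cell with more UMIs reaches 3 markers more easily, so shares were also computed after each cell had been thinned at random to the same number of UMIs, and the members were also compared with other C1q-gated cells of matched depth. Thinned to 1000 UMIs, members held a median of 607, 603.5 and 686.5 genes in CD, HFD and WD, against 559, 541 and 644 in the other C1q-gated cells.

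The macrophage label was checked against markers outside the gate. Of 12 macrophage markers, among them Csf1r (the receptor for the growth factor CSF1), Adgre1 (F4/80) and Fcgr1, members had a median of 5 with a UMI at 1000 UMIs per cell, the same median as the other C1q-gated cells, in each of the 3 libraries. At least 3 of the 12 were present in 102 of 114 CD members, 45 of 50 HFD members and 140 of 144 WD members. These shares of 89.5%, 90% and 97.2% stood beside 96.6%, 96.3% and 95.6% of the other cells. The summed level of the 12 was nevertheless lower in members, at 17075 against 25291 CPM (UMIs of the genes in 1000000 UMIs of the summed cells) in CD, 17672 against 28429 in HFD and 11726 against 15310 in WD, and none of the 12 was at 0. Markers of other cells were also read. The 10 endothelial markers summed to 524 CPM in CD members against 242 in the other cells, and 463 of those 497 UMIs (93.2%) lay in 5 cells. In HFD the endothelial sum was 436 against 429 CPM and in WD 28.8 against 31.8. Markers of conventional dendritic cells summed to 176 against 131 CPM in CD, 197 against 174 in HFD and 156 against 109 in WD. Fibroblast markers summed to 256 against 210 CPM in CD, 298 against 254 in HFD and 121 against 99.9 in WD. All 8 NK cell markers were at 0 in CD and HFD members, and in WD they summed to 41.6 CPM in members against 55.9 in the other cells. At least 2 markers of another class were present in 36.8%, 24% and 66.0% of members, against 39.8%, 26% and 72.9% of depth-matched other cells. The highest doublet scores fell on 7, 1 and 21 members (6.14%, 2% and 14.6%), against 3.58%, 5% and 10.9% of depth-matched other cells. The part of these cells in the results was not tested beyond their removal, which is reported in the closing section.

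The gate genes, whose levels set the membership, were measured as follows. Mki67 stood at 229 CPM in CD members, 417 in HFD members and 747 in WD members, against 2.39, 2.37 and 13.8 in the other C1q-gated cells. Top2a stood at 429, 707 and 521 CPM against 3.74, 3.48 and 4.92. Birc5 was at 595, 629 and 166 CPM, against 2.59, 3.48 and 1.18. All 6 markers were found together in 36 CD members (31.6%), 11 HFD members (22%) and 74 WD members (51.4%). The share of members with a Mki67 UMI was 71.9%, 82% and 98.6%, and the share with a Pclaf UMI 78.1%, 70% and 72.2%. C1qa was lower in members than in the other cells in each library, at 5045 against 7530 CPM in CD, 5999 against 8415 in HFD and 2965 against 3494 in WD.

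The threshold of 3 markers cut through cells of mixed kind. There were 27 CD cells, 10 HFD cells and 20 WD cells with exactly 3 markers. These held 30.2, 31.1 and 12.9 UMIs of the G1/S list in 10000 UMIs, and 33.1, 24.7 and 7.13 of the G2/M list. Cells just outside, with exactly 2 markers, numbered 22, 16 and 108 in the same order. Their G1/S values were 37.4, 53.9 and 6.34, and their G2/M values 8.85, 18.8 and 2.68. In CD and HFD, the cells just outside thus held no less of the replication genes than those just inside, and less of the mitotic genes.

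Over all members the mitotic genes led. The G2/M and mitosis list, 48 genes such as the anaphase regulator Cdc20 and the kinases Plk1 and Aurka, took 59.9 of 10000 UMIs in CD members, 75.8 in HFD and 42.3 in WD, against 2.65, 2.82 and 2.06 in the other C1q-gated cells. The 44 genes of G1/S and DNA replication took 33.7, 29.9 and 22.9, against 5.94, 5.31 and 4.47. More G2/M than G1/S UMIs were found in 77 CD members (67.5%), 37 HFD members (74%) and 92 WD members (63.9%). Most of the 6 gate markers are themselves genes of G2 and mitosis.

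Genes of the cell cycle that the gate did not use were higher in the same cells, and their levels are also given as a description. Ube2c, which tags mitotic cyclins for breakdown, stood at 442 CPM in CD members, 700 in HFD and 223 in WD, against 0.862, 2.37 and 1.18 in the other cells. Cenpf, a protein of the kinetochore, was at 191, 384 and 269 CPM against 1.44, 1.58 and 2.01. Of the replication genes, Tk1, which salvages thymidine, was at 239, 171 and 44.9 CPM against 4.31, 5.53 and 0.959. The replication clamp gene Pcna had a smaller gap, at 302, 227 and 233 CPM against 82.2, 67.8 and 94.2. Stmn1, which takes microtubules apart, was at 2125, 2677 and 660 CPM against 63.0, 82.0 and 25.5, and Hmgb2, a chromatin protein, at 1606, 1929 and 1163 against 144, 117 and 265. In all 6 of these genes the summed level of the members was the higher one in each library.

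**Figure D1:**
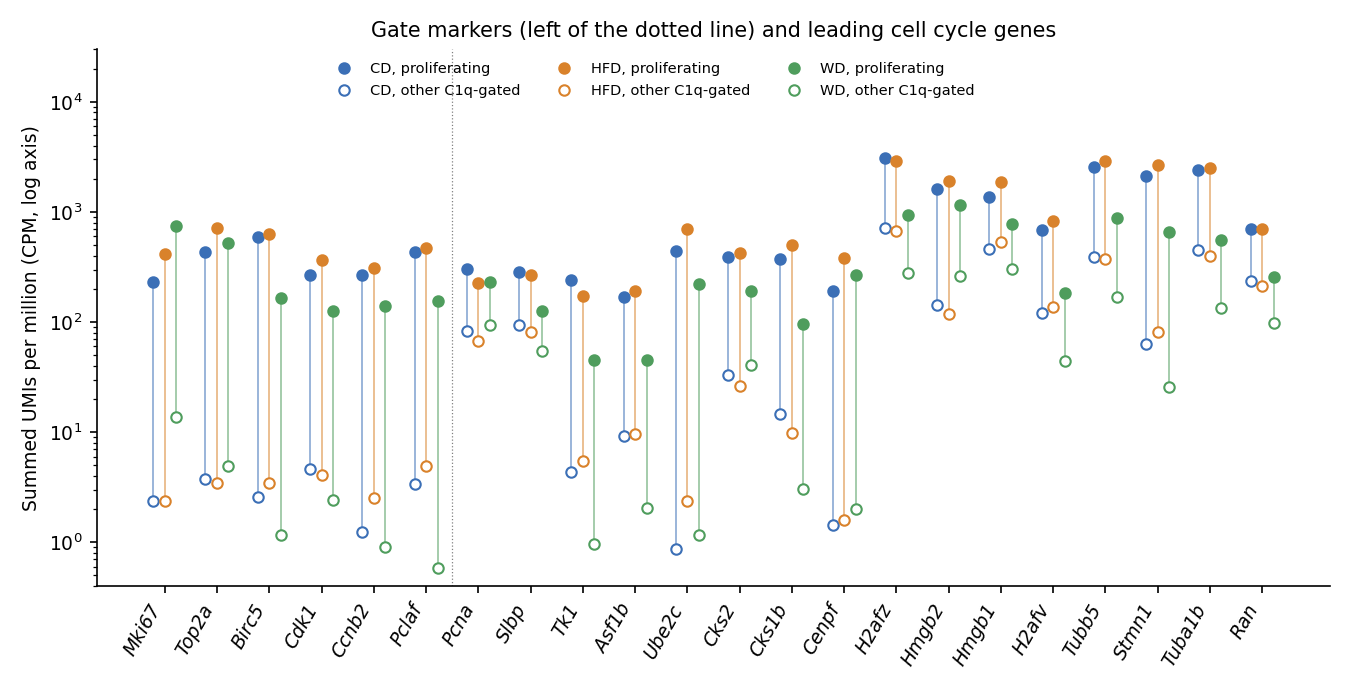
Summed CPM (log axis) of the 6 gate markers, left of the dotted line, and of 16 cell cycle genes outside the gate, right of it; filled points are proliferating members and open points the other C1q-gated cells, coloured by library, and a line joins the 2 classes of a library. Each filled point lies above the open point of its library, from Ube2c at 442 against 0.862 CPM in CD to Slbp at 125 against 55.1 in WD.

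To compare all other genes, UMIs were summed over the members and over the other C1q-gated cells of each library, and the 6 sums were fitted with edgeR's quasi-likelihood test with the library as a block. Its p-values and SEs rest on a spread estimated over 3 libraries of different diets and pooled across genes. They do not measure how far a single gene varied between the libraries, and an SE can be smaller than that. For Klf2, members stood at 0.584, 0.461 and 0.823 times the other cells in CD, HFD and WD, with a log2 SE of 0.09. Of 10882 genes tested, 1108 were higher in members (10.2% of all tested) and 1170 lower (10.8%) at an adjusted p under 0.05. The median log2 fold of all genes was -0.08 with TMM scaling and 0.08 with scaling on total UMIs alone, a shift of about the size of the smaller differences below. With total UMIs alone 1545 genes were higher and 546 lower, so the share of higher calls went from 48.6% to 73.9%. Since the gate used genes of the same program, the counts of the cell cycle lists are a description and no evidence. In those lists 44 of 44 genes of G1/S and DNA replication, 47 of 47 of G2/M and mitosis, 33 of 33 of chromatin and histones and 12 of 12 of spindle and tubulin were higher, with median log2 folds of 2.61, 5.91, 2.36 and 2.11.

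The resident macrophage program made up a smaller share of the UMIs of members. CPM are shares of the summed UMIs, and members held more UMIs per cell. A lower CPM, here and below, therefore need not mean fewer UMIs in a cell. All 20 genes of the resident list fell, with a median log2 fold of -0.98 against -0.08 over all genes, and none rose. With total UMIs alone all 20 again fell, and under both scalings the list's median minus that of all genes was -0.90. Folr2, a folate receptor of resident macrophages, stood at 524 CPM in CD members, 488 in HFD and 336 in WD, against 1147, 1109 and 496 in the other cells. It was lower in all 3 libraries and fell by 1.09 ± 0.09 (log2, SE; adjusted p = 2.76e-22, edgeR). Lyve1, a hyaluronan receptor, stood at 187, 89.4 and 455 CPM against 385, 324 and 746, a log2 fold of -1.17 ± 0.11 (adjusted p = 1.29e-19, edgeR). Timd4, which binds phosphatidylserine on dying cells, was at 52.7, 29.8 and 69.9 CPM against 109, 107 and 94.2 (log2 fold -0.92 ± 0.14, adjusted p = 9.64e-09, edgeR). The growth factor gene Igf1 was at 124, 127 and 119 CPM against 327, 269 and 177, 2.16-fold lower. Ninj1, a membrane protein that ruptures the plasma membrane in lytic death, was at 378, 171 and 169 CPM against 813, 604 and 238 (log2 fold -1.16 ± 0.11).

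Lectins of the Cd209 family were the lowest of the resident list. Cd209f stood at 109 CPM in CD members, 18.6 in HFD and 4.36 in WD, against 260, 378 and 11.4 (log2 fold -1.94 ± 0.16, adjusted p = 7.10e-23, edgeR). It was detected in 12, 4 and 3 members, and 1 cell held 52.4% of its UMIs in CD and 80% in WD. With DESeq2 its adjusted p was 0.056. Cd209b had 0 UMIs in CD and WD members, against 12.2 and 1.52 CPM, and was at least 3.84-fold and 2.33-fold lower there when 3 UMIs are taken as the floor of each library. In HFD members it was at 3.72 CPM against 33.8. Cd209d, outside the list, was at 11.6, 18.6 and 0.654 CPM against 38.8, 60.4 and 3.11.

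Shares of cells were also read at equal depth. Detection after thinning follows a gene's share of the cell's UMIs, so these shares are not independent of the lower CPM. Thinned to 1000 UMIs, 38.6% of CD members (95% exact binomial interval 29.6 to 48.2) held a UMI of Timd4, Lyve1 or Folr2, against 58.0% of the other C1q-gated cells. In HFD the share was 34% (21.2 to 48.8) against 51.4%, and in WD 43.1% (34.8 to 51.6) against 54.4%. Depth-matched other cells gave 58.1%, 53.7% and 61.0%. Cells below the C1q limit with endothelial markers (CD, HFD) or NK markers (WD), which should lack these genes, gave 2.60%, 6.38% and 8.13%, at median depths of 2727.5, 1873.5 and 6862 UMIs before thinning. The members' shares lay between the background and the other macrophages in each library. Of the 3 genes, Folr2 was found in 30.7%, 32% and 21.5% of members against 51.5%, 45.5% and 32.4%, and Lyve1 in 12.3%, 6% and 27.1% against 24.4%, 22.1% and 39.7%. Timd4 was found in 5.26%, 6% and 4.86% against 9.50%, 8.97% and 8.23%. Without thinning, the deeper members showed a gap of only -6.99 percentage points in CD and -0.0369 in HFD, and the sign turned to 8.32 in WD. These intervals cover counting error only.

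Ccr2, the receptor that brings monocytes into tissue, did not pass the test. Its summed level was 268 CPM in CD members, 201 in HFD and 90.4 in WD, against 185, 202 and 88.9 in the other cells (log2 fold 0.05 ± 0.11, adjusted p = 0.850, edgeR). Against depth-matched cells the log2 fold was -0.43 (adjusted p = 0.00657, edgeR). At 1000 UMIs, 20.2% of CD members (13.2 to 28.7) held a Ccr2 UMI against 12.6% of the other cells, 22% (11.5 to 36.0) against 11.3% in HFD, and 7.64% (3.88 to 13.3) against 4.98% in WD. Depth-matched other cells gave 17.6%, 14% and 9.98%, which lie inside the members' intervals. The background was 0.521% in CD and 0.213% in HFD. In WD the background class was cells with NK markers, and it gave 11.3%. That is above the members and the other C1q-gated cells, so it sets no floor there. The WD share is given as a value only.

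Sorted by both signatures at 1000 UMIs, a UMI of Timd4, Lyve1 or Folr2 without Ccr2 was found in 36.0% of CD members, 32% of HFD and 41.0% of WD. Ccr2 without any of the 3 was found in 17.5%, 20% and 5.56%, and neither in 43.9%, 46% and 51.4%. Both signatures together were found in 2.63%, 2% and 2.08%. Without thinning, 31 of 114 CD members held both and 22 held Ccr2 alone, and in HFD 9 of 50 held both and 11 Ccr2 alone. So in CD and HFD members held UMIs of either signature, while the split into separate kinds depended on depth. In WD the background class set no floor for Ccr2, and its Ccr2 classes are given as values only. Turned around, 41 of 1233 CD cells with the resident genes alone were proliferating (3.33%, 2.40 to 4.48), against 20 of 222 cells with Ccr2 alone (9.01%, 5.59 to 13.6). In HFD these shares were 16 of 992 (1.61%, 0.925 to 2.61) against 10 of 203 (4.93%, 2.39 to 8.87), and in WD 59 of 1950 (3.03%, 2.31 to 3.89) against 8 of 134 (5.97%, 2.61 to 11.4). The intervals did not overlap in CD and overlapped in HFD. The median depth of the 2 classes before thinning was 4539 and 4321 UMIs in CD, 2974.5 and 3333 in HFD and 12798.5 and 15099.5 in WD, in each case the resident class first.

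**Figure D2:**
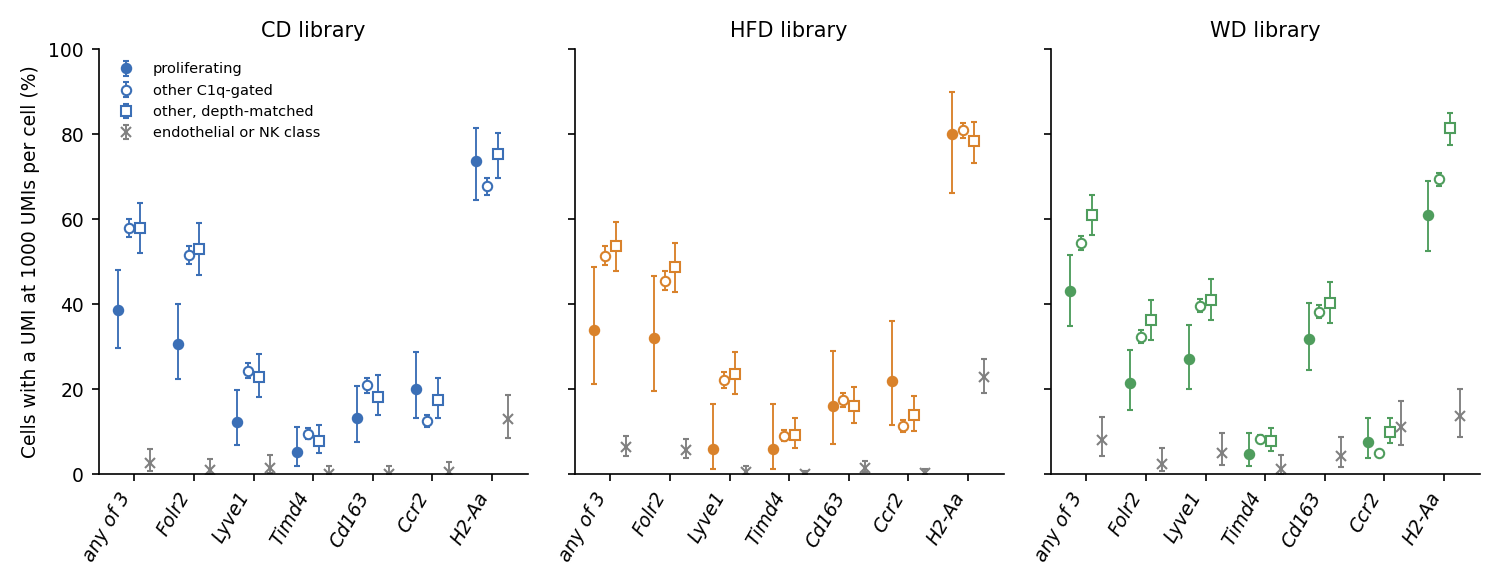
Share of cells with at least 1 UMI of each gene (or of any of Timd4, Lyve1 and Folr2) after thinning to 1000 UMIs, 1 panel per library; filled circles are members, open circles other C1q-gated cells, squares depth-matched other cells and crosses the endothelial or NK background, with 95% exact binomial intervals. Members lie below the other cells for any of the 3 resident genes in each panel (38.6% against 58.0% in CD), while their Ccr2 intervals include the depth-matched cells.

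MHC class II genes, which present antigen and mark the Ccr2 macrophages, were lower by a small amount. In the list of Ccr2 and MHC class II genes 5 of 15 fell and none rose, with a median log2 fold of -0.15. With total UMIs alone 4 fell and 2 rose. Cd74, the invariant chain, stood at 17587 CPM in CD members, 23872 in HFD and 7577 in WD, against 20752, 33145 and 9458 (log2 fold -0.51 ± 0.06, adjusted p = 1.07e-12, edgeR). The chains H2-Eb1 and H2-Ab1 had log2 folds of -0.47 ± 0.07 and -0.44 ± 0.07. Without the HFD library 0 of the 15 passed edgeR's test and 0 had an unadjusted p under 0.05. For Cd74 the log2 fold was then -0.45 ± 0.26 (adjusted p = 0.314, edgeR), a fold near that of all libraries with a larger SE. Against depth-matched cells 9 of 15 fell. A UMI of H2-Aa at 1000 UMIs was found in 73.7%, 80% and 61.1% of members, against 67.7%, 81.0% and 69.4% of the other cells and a background of 13%, 23.0% and 13.8%. Among classical monocyte genes 6 of 13 fell and 1 rose (median log2 fold -0.68). Without the CD library 0 of 14 passed edgeR's test, with 3 lower and 1 higher at an unadjusted p under 0.05. Plac8, a monocyte gene, was at 34.8, 11.2 and 53.4 CPM in members against 139, 8.53 and 66.8, lower in CD and WD and not in HFD. The gene that rose was Ear2, a ribonuclease of the eosinophil-associated family, at 129, 108 and 35.5 CPM against 92.2, 62.4 and 24.1 (log2 fold 0.41 ± 0.13, adjusted p = 0.0161, edgeR). Against depth-matched cells Ear2 turned to the lower side, with a log2 fold of -0.50 (adjusted p = 0.00358, edgeR).

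**Figure D3:**
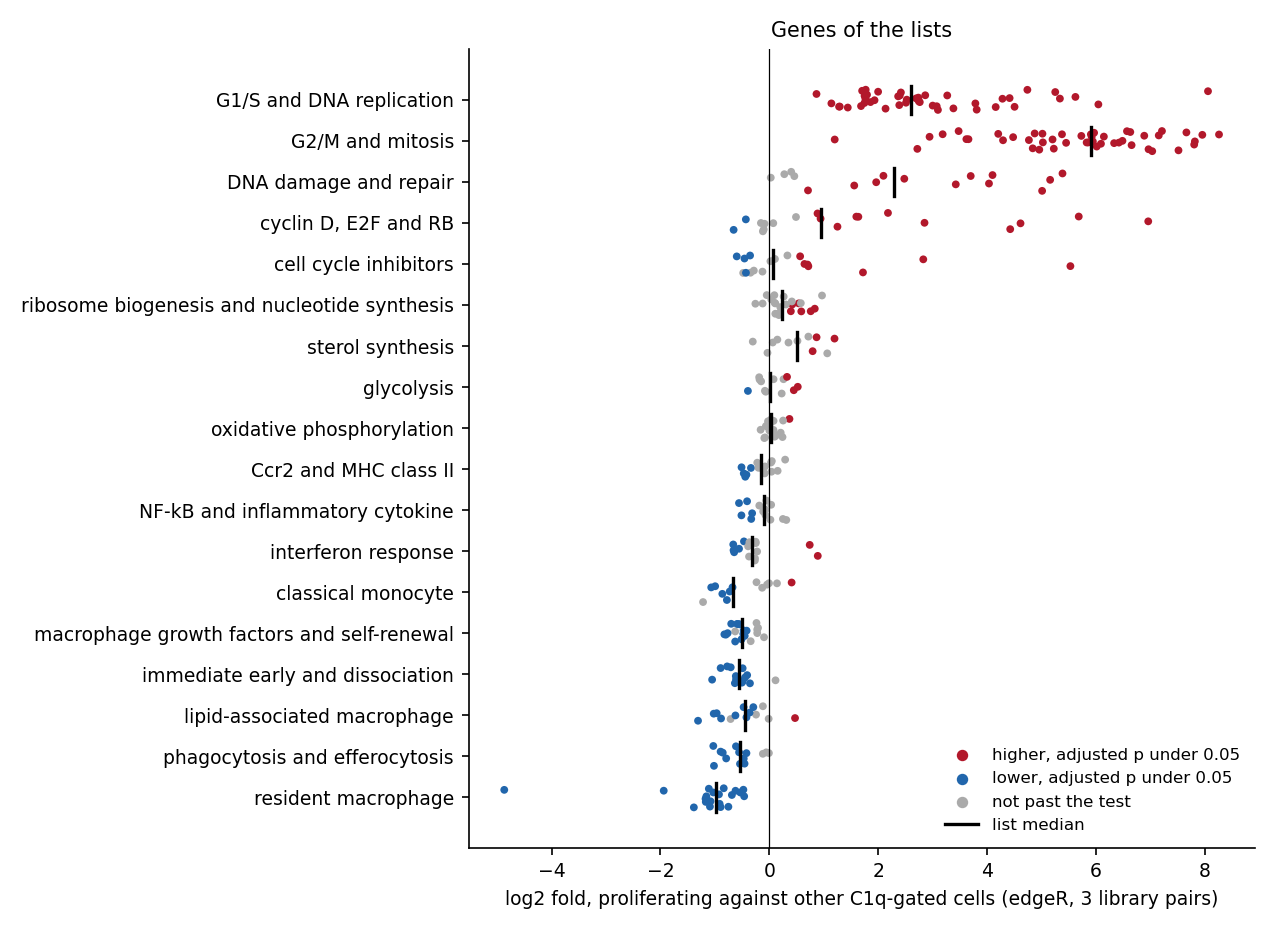
Log2 fold of each tested list gene, proliferating members against other C1q-gated cells, over the 3 libraries; red and blue points passed an adjusted p under 0.05 as higher or lower, grey points did not, and black bars are list medians. The resident list lies wholly below 0 with a median of -0.98, the G2/M list wholly above with a median of 5.91.

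Many genes in the list of macrophage growth factors and self-renewal were lower in members. The list joins receptors such as Csf1r with transcription factors of differing roles, among them Maf, Klf2, Myc, Jun and Fos. Of 20 tested genes in this list, 13 fell and none rose (median log2 fold -0.49). With total UMIs alone 10 fell, and 8 to 10 when 1 library was left out. Klf2, a transcription factor of quiescence, stood at 712 CPM in CD members, 391 in HFD and 2113 in WD, against 1220, 848 and 2566 (log2 fold -0.83 ± 0.09, adjusted p = 1.33e-15, edgeR). Csf1r was at 620, 663 and 583 CPM against 908, 943 and 742, 1.54-fold lower. Maf, a factor that restrains self-renewal of macrophages, was at 348, 261 and 689 CPM against 383, 394 and 851 (log2 fold -0.47 ± 0.10, adjusted p = 4.25e-05, edgeR). Myc, a driver of growth, was at 13.7, 11.2 and 11.8 CPM against 15.1, 15.8 and 13.2 and did not pass the test (adjusted p = 0.370, edgeR).

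Among cyclin D, E2F and RB genes 11 of 19 were higher and 2 lower. These genes belong to the program the gate selected, and their higher levels are given as a description. Foxm1, the factor that drives mitotic genes, stood at 21.1 CPM in CD members, 33.5 in HFD and 30.3 in WD, against 0.192, 0 and 0.688. E2f8, a repressor that closes S phase, was at 27.4, 37.2 and 31.4 CPM against 1.25, 0.474 and 1.48. Cdk4, the partner of D cyclins, was at 163, 182 and 37.0 against 79.5, 74.6 and 17.8. The D cyclins did not follow. Ccnd2 was lower, at 31.6, 33.5 and 53.6 CPM against 54.2, 65.1 and 66.9 (log2 fold -0.66 ± 0.15, adjusted p = 1.76e-04, edgeR). Ccnd1 was at 143, 81.9 and 64.1 CPM against 120, 120 and 64.7 and did not pass (adjusted p = 0.461, edgeR).

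Several inhibitors of cyclin-dependent kinases were higher in the same cells. Of 18 genes in the list 7 were higher and 4 lower, and 1 was lower without CD, without HFD or with C1q at 1%. Cdkn2c (p18) stood at 255, 298 and 58.2 CPM in CD, HFD and WD members, against 32.6, 29.4 and 8.38 (log2 fold 2.83 ± 0.13). Cdkn2d (p19) stood at 147, 186 and 53.8 CPM against 27.2, 27.0 and 25.4. Cdkn1a (p21), which p53 induces, was at 502, 518 and 595 CPM against 267, 200 and 468 (log2 fold 0.64 ± 0.10, adjusted p = 3.19e-08, edgeR). Without HFD its log2 fold was 0.45 ± 0.19 (adjusted p = 0.140, edgeR). Cdkn1b (p27) was at 43.2, 37.2 and 63.0 CPM against 34.1, 31.8 and 53.9 and did not pass (adjusted p = 0.711, edgeR). Inhibitors and repair genes belong in part to the program the gate selected, and H2afx is also in the chromatin and histone list. Higher levels of these genes are given as a description and not as a sign of DNA damage or arrest. Of 16 DNA damage and repair genes 12 were higher and none lower. Among them were H2afx, the histone marked at broken DNA, at 278, 451 and 69.9 CPM against 16.1, 19.3 and 7.51, and Brca1, which acts in repair by recombination, at 26.4, 14.9 and 64.5 CPM against 0.862, 0.790 and 1.43.

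Genes of lipid handling and of the uptake of dead cells were lower. Apoe, the lipoprotein that carries lipid out of macrophages, stood at 8719 CPM in CD members, 9920 in HFD and 6512 in WD, against 23501, 25296 and 10222 in the other cells. It was 2.48-fold lower (log2 fold -1.31 ± 0.07, adjusted p = 1.34e-43, edgeR). The lysosomal genes Cd63 and Ctsd were 2.03-fold and 1.85-fold lower. In the list of lipid-associated macrophages 9 of 14 fell and 1 rose (median log2 fold -0.45). The count of lower genes was 5 without CD, 5 without HFD and 5 with total UMIs alone, and 13 against depth-matched cells. The gene that rose, Cd9, a tetraspanin, was at 306, 518 and 149 CPM against 261, 205 and 105, and did not pass without HFD (adjusted p = 0.645, edgeR) or against depth-matched cells (0.0592, edgeR). In the phagocytosis list 11 of 14 fell and none rose (median log2 fold -0.55). Gas6, which bridges dying cells to the receptor Mertk, was at 277, 249 and 148 CPM against 524, 503 and 248. Mertk itself was at 14.8, 11.2 and 287 CPM against 31.7, 35.1 and 492, and the Fc receptor Fcgr3 at 593, 849 and 397 against 1086, 1354 and 511. Each of these 3 was lower in all libraries.

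By list medians, oxidative phosphorylation and glycolysis (log2 fold 0.006) lay near the level of the other cells, and some genes of nucleotide and sterol synthesis were higher. By summed CPM the lists were less apart. Oxidative phosphorylation was 1.14, 1.18 and 1.19 times the other cells in CD, HFD and WD, and glycolysis 1.23, 1.40 and 1.29 times. Ribosome biogenesis and nucleotide synthesis was 1.34, 1.26 and 1.30 times. Of 22 oxidative phosphorylation genes 1 rose, Cox7a2 (log2 fold 0.37 ± 0.10), and none fell. The median of the list was 0.03, and 6 were higher with total UMIs alone. Of 12 glycolysis genes 3 rose and 1 fell, and with total UMIs alone 5 rose and 0 fell. Gapdh stood at 970, 901 and 633 CPM against 667, 473 and 408 (log2 fold 0.52 ± 0.09, adjusted p = 5.21e-07, edgeR). It did not pass without HFD, where its log2 fold was 0.41 ± 0.20 (adjusted p = 0.199, edgeR). Of 22 genes of ribosome biogenesis and nucleotide synthesis 6 rose and none fell. The count of higher genes was 10 with total UMIs alone, 3 without CD and 2 with DESeq2. Paics, an enzyme of purine synthesis, was at 109, 93.1 and 63.6 CPM against 53.4, 45.7 and 32.7, and Impdh2, which commits purines to guanine nucleotides, at 124, 130 and 45.1 against 62.6, 56.9 and 26.8. Of 11 sterol synthesis genes 3 rose (Fdft1, Idi1 and Cyp51) and none fell (median log2 fold 0.52). Without CD or without WD 1 rose, and DESeq2 called 0 of the 11, with 1 higher at an unadjusted p under 0.05.

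Immediate early genes, which also respond to tissue digestion, were lower as a group. Of 14 tested genes 13 fell and none rose (median log2 fold -0.56). When HFD was left out 4 passed as lower, with a median log2 fold of -0.51. Junb stood at 855, 168 and 2183 CPM in CD, HFD and WD members against 1286, 396 and 2544 (log2 fold -0.71 ± 0.09, adjusted p = 2.13e-11, edgeR). The heat shock gene Hspa1a was at 330, 74.5 and 716 CPM against 640, 156 and 997. Of 15 genes of NF-kB and inflammatory cytokines 5 fell and none rose with TMM scaling, while with total UMIs alone 2 fell and 2 rose. With at least 2 gate markers 1 fell. Without HFD 0 of 16 passed edgeR's test, with 2 lower at an unadjusted p under 0.05. The chemokine Cxcl2 was at 1295, 55.9 and 4224 CPM against 1210, 73.6 and 3227 and did not pass (log2 fold 0.03 ± 0.09, adjusted p = 0.867, edgeR). Among 16 interferon genes 5 fell and 2 rose. Without CD 2 fell and 2 rose, without WD 9 fell and none rose, and without cells carrying markers of another class 8 fell and none rose. The antiviral gene Rsad2 was at 12.7, 18.6 and 81.3 CPM against 16.0, 13.1 and 30.8, and its call rested on WD, without which its log2 fold was -0.23.

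The genes furthest apart outside the lists were again largely of the cell cycle. Aspm, a spindle pole protein, stood at 43.2 CPM in CD members, 78.2 in HFD and 139 in WD, against 0, 0.158 and 0.633, which is at least 150-fold higher in CD on a floor of 3 UMIs. The mitotic kinase Nek2 was at 27.4, 41.0 and 24 CPM against 0, 0 and 0.127, at least 95.4-fold and 86.4-fold higher in CD and HFD. The kinesins Kif14, Kif18b and Kif4 and the glycosylase Neil3 were also among the 12 named by the rule. On the lower side stood Cd209b and Cd209d, already given, and Cxcl13, a chemokine that attracts B cells. Cxcl13 was at 45.3, 0 and 0.872 CPM against 115, 71.3 and 3.96, at least 6.38-fold lower in HFD. Slc46a1, a folate transporter, was at 1.05, 0 and 1.09 CPM against 11.6, 7.11 and 2.17. The haemoglobin gene Hba-a2 was at 23.2, 0 and 1.09 CPM against 113, 1.42 and 11.4, beside erythroid markers that summed to 91.7 CPM against 615 in CD, 14.9 against 8.53 in HFD and 10.0 against 82.8 in WD. The part of red cell RNA in that difference was not tested. With the C1q limit at 1% the log2 fold of Hba-a2 turned to 1.21.

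The share of proliferating cells among C1q-gated cells was 4.97% in CD (114 of 2293, 95% exact binomial interval 4.12 to 5.94), 2.50% in HFD (50 of 2002, 1.86 to 3.28) and 3.87% in WD (144 of 3717, 3.28 to 4.55). These values moved with depth. Thinned to 1000 UMIs, the shares were 1.44%, 1.15% and 0.699%. At 2000 UMIs they were 3.37%, 2.19% and 1.84%. At 4000 UMIs they were 5.80% (4.59 to 7.22) in CD, 5.77% (3.96 to 8.09) in HFD and 2.61% (2.12 to 3.19) in WD, where 1001, 1465 and 82 shallower cells were left out. CD and HFD thus differed by exact intervals that do not overlap only without thinning. No order of the diets is read from these shares. The same markers were found in 2.33% of CD cells below the C1q limit, 1.40% in HFD and 3.88% in WD, and in 0.521%, 0.638% and 0.625% of the endothelial or NK background cells.

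In each library the share was highest among cells of many UMIs, though it did not climb at each step. In CD it was 1.83% of cells with 1000 to 2000 UMIs and 20.5% of cells with 8000 to 16000 (50 of 244), and 20% above that (6 of 30). In HFD it went from 0.371% to 12.5% (6 of 48) over the same classes. In WD it was 0 of 22 cells under 2000 UMIs, 1.04% of cells with 4000 to 8000 (6 of 577), 0.740% of cells with 8000 to 16000 (14 of 1892) and 10.6% of cells above 16000 (124 of 1166).

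**Figure D4:**
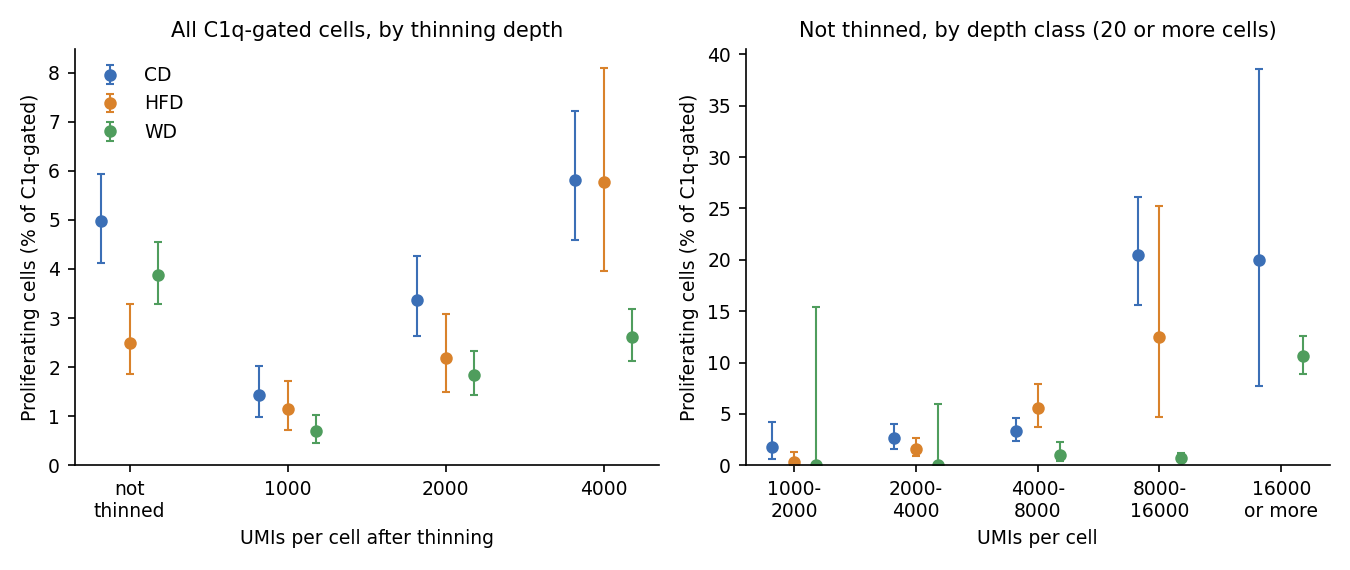
Share of C1q-gated cells that were proliferating (percent, with 95% exact binomial intervals) in CD, HFD and WD, on the left without thinning and after thinning to 1000, 2000 and 4000 UMIs, on the right by the UMIs of the cell. CD and HFD are apart without thinning (4.97% and 2.50%) and close at 4000 UMIs (5.80% and 5.77%).

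HFD members were compared with CD members by the ratio of their summed UMIs, with an exact conditional interval that covers counting error only. Of 3229 genes with at least 50 UMIs over both, 133 were at least 1.5-fold higher in HFD with an interval off 1 (4.12%) and 170 lower (5.26%). The HFD sum rests on 50 cells with 268562 UMIs and the CD sum on 114 cells with 948297. The clearest group was inflammatory. In the NF-kB and cytokine list 8 of 9 genes compared were lower and 0 were higher in HFD. Their median log2 ratio was -2.29 when the 1 gene at 0 is placed at the floor, against -0.03 over all genes. Cxcl2, which draws neutrophils, stood at 55.9 CPM in HFD members against 1295 in CD, with 4224 in WD. It was 23.2-fold lower (14 to 41.6) and present in 3 of 50 HFD members, 78 of 114 CD members and 140 of 144 WD members. Ccl4 was at 11.2 CPM, or 3 UMIs, against 396 and with 1581 in WD (35.5-fold lower, 12.1 to 173). Ccl3 had 0 UMIs in HFD against 114 CPM in CD, at least 10.2-fold lower.

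The other C1q-gated cells of the same libraries differed in the same direction. In them Cxcl2 was at 73.6 CPM in HFD against 1210 in CD, Ccl4 at 47.7 against 265 and Ccl3 at 12.8 against 174. Immediate early genes went the same way, 9 of 12 lower in HFD members and none higher, with a median log2 ratio of -1.96 against -1.57 in the other cells. Junb was at 168 CPM in HFD members and 855 in CD members. S100a8 and S100a9, neutrophil and monocyte alarmins, had 0 UMIs in HFD members against 449 and 227 CPM in CD, at least 40.2-fold and 20.3-fold lower. S100a8 was found in 27 of 114 CD members. All neutrophil markers together summed to 814 CPM in CD members and 11.2 in HFD members, and to 852 and 128 in the other cells. The part of RNA from neutrophils in these values was not tested.

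**Figure D5:**
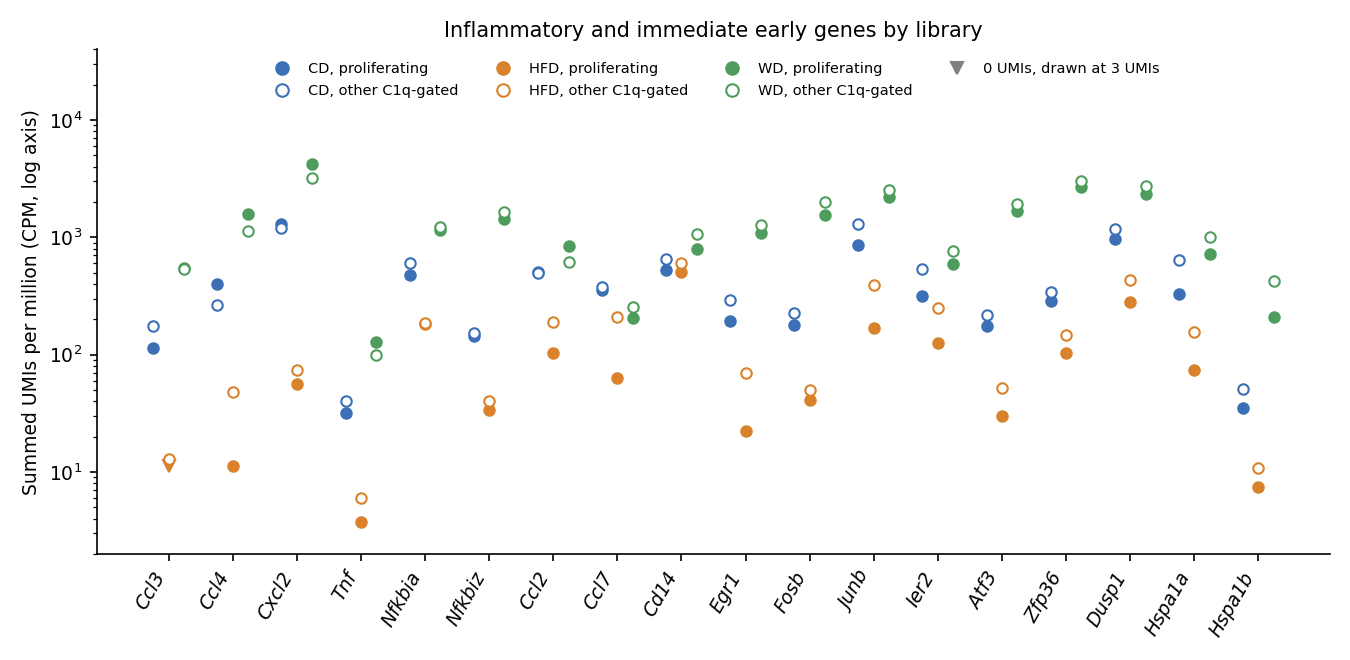
Summed CPM (log axis) of genes of the NF-kB and immediate early lists in members (filled) and other C1q-gated cells (open) of each library; the triangle is Ccl3 at 0 UMIs in HFD members, drawn at 3 UMIs. HFD points lie below CD points in both classes, as for Cxcl2 at 55.9 against 1295 CPM in members and 73.6 against 1210 in other cells.

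Among mitotic genes 9 of 43 were higher in HFD members and 1 lower, with a median log2 ratio of 0.38. HFD members were shallower (median 5404 against 7812 UMIs), and a shallower cell reaches 3 markers more easily if its mitotic share is higher. Of the 6 gate markers 2 were higher and 0 lower, with a median of 0.33. The part of the gate in the mitotic difference was not tested. Cenpf stood at 384 against 191 CPM (2.01-fold, 1.56 to 2.57), and Ube2c at 700 against 442. Kif23, a kinesin of cytokinesis, was at 298 against 159 CPM. Of 27 G1/S genes 2 were higher and 2 lower. Genes of the resident list were higher in none and lower in 5 of 19, with Lyve1 at 89.4 against 187 CPM (2.09-fold lower), where the other cells differed 1.19-fold. Of 22 oxidative phosphorylation genes none was higher or lower. The furthest gene on the higher side was the water channel Aqp1, at 130 against 22.1 CPM and with 12.4 in WD (5.89-fold, 3.33 to 10.6). Of its 35 UMIs in HFD members, 37.1% lay in 1 cell, and it was also 3.10-fold higher in the other HFD cells. The linker histone gene Hist1h1e was at 115 against 32.7 CPM and the chromatin remodeller gene Baz1b at 93.1 against 33.7. These 2 genes stood at 230 and 168 CPM in WD members.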

How the data were processed

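Count matrices of UMIs per gene and cell barcode were deposited by the authors for 3 droplet libraries, 1 per diet. Per the file headers, Cell Ranger 3.0.1 (CD, HFD) and 7.2.0 (WD) wrote them. GRCm38 and Seurat are named in the submitters' processing notes. The sources used here give no other settings. Filters and gates were applied to these counts as given in the text. Over the 30406 genes shared by the matrices, UMIs were summed per library and class and tested with edgeR 4.0.16 (quasi-likelihood, TMM, library as a block, Benjamini-Hochberg over all genes tested) in R 4.3.3, with DESeq2 1.42.0 as an alternative. The 9 gate genes were not tested, and 2 listed symbols (Fam64a and Aldoa) were not found by symbol. The fit was tested on simulated counts. Doublets were scored with Scrublet in scanpy 1.11.5 and kept in the main values. Intervals are exact at 95%. Other cells of matched depth have the members' shares of cells in each UMI class. The genes named were, per list, up to 4 (cell cycle lists, highest CPM) or 3 (other lists, lowest adjusted p), and outside lists the 12 furthest in each direction, or the 8 furthest between HFD and CD; others are members of the lists chosen after their values were seen. The members and lists were chosen with earlier results of these data known. The mitochondrial limit removed 6.33%, 11.9% and 26.1% of CD, HFD and WD cells. Alternatives were other scaling, filters, gates, comparison cells, thinning and leaving out a library.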

Additional observations from a re-analysis of the deposited data

How the results depend on the processing

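Of 99 genes and values named for the test or the diet ratio, 1375 alternative values were computed. Of these 1281 stayed on the same side of the threshold, 87 no longer passed, 4 newly passed and 3 reversed. The 99 include cell cycle genes whose higher level follows from the gate, so the tally is no measure of the other genes alone. A change of sign was counted as reversed only where the main value had passed. The reversed ones were Plac8 (log2 fold 0.072) and Hba-a2 (1.21) with C1q at 1%, and Rsad2, whose values with 1 library left out ran from -0.23 (without WD) to 1.15. Ear2, named after its values were seen and not among the 99, also turned, to -0.50 against depth-matched cells (adjusted p = 0.00358, edgeR) and to -0.78 with C1q at 1% (0.151, edgeR). DESeq2 called 646 genes higher and 454 lower, and thinning to 1000 UMIs 302 and 395. The 1100 calls of DESeq2 were all among the 2278 of edgeR. Genes lower numbered 546 with total UMIs alone, 583 with at least 2 markers, 703 with C1q at 1%, and 457 to 720 with 1 library left out, lowest without HFD; genes higher then numbered 808 to 952. The CD share was 3.79% with at least 4 markers, 4.07% without cells carrying markers of another class, and 1.44% and 3.37% thinned to 1000 and 2000 UMIs. The HFD share was 3.30% with at least 2 markers, 3.28% over cells with at least 2000 UMIs, and 1.15% and 5.77% thinned to 1000 and 4000 UMIs. The WD share was 6.78% with at least 2 markers, 2.78% with C1q at 1%, 2.25% without cells carrying markers of another class, and 0.699%, 1.84% and 2.61% thinned to 1000, 2000 and 4000 UMIs. Without thinning, the gap between members and other cells in the share with a resident gene was -6.99 percentage points in CD, -0.0369 in HFD and 8.32 in WD, and that of Ccr2 was 19.6 in CD and 19.8 in WD. Between HFD and CD, 16 genes were higher and 26 lower after thinning, and 40 and 95 at a 2-fold threshold. Thinning leaves fewer UMIs and fewer genes tested; the cause of the other changes was not tested. Without cells carrying markers of another class 951 genes were higher and 1165 lower, and without the highest doublet scores 1052 and 1065. The test of members against other cells pairs them by library. Between diets, no paired analysis was possible because each diet has 1 library and the diets share a single replicate number. The depth of HFD members, where 3 UMIs equal 11.2 CPM, limits what can be seen at low levels.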
